A study of Homo sapiens with 4 samples.

Results

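SR proteins, heterogeneous nuclear ribonucleoproteins (hnRNPs) and TRA2 proteins are the RNA-binding factors that help decide which exons of a pre-mRNA are joined. SR proteins (the SRSF genes) bind exons through RNA recognition motifs and recruit the spliceosome through a tail rich in arginine and serine. The TRA2 proteins are close relatives of them, and hnRNPs coat the nascent transcript and often oppose the use of nearby splice sites. Many of these genes splice their own transcripts in more than 1 way, and some of those transcripts are destroyed by nonsense-mediated decay. The genes described here were the rows of the deposited gene table named SRSF and a number, HNRNP followed by letters or numbers, TRA2A or TRA2B, with a mean above 0. Of 152 matching symbols, 34 had a value: 21 HNRNP genes, 11 SRSF genes and both TRA2 genes, out of 41507 genes in the table. The other 118 were at 0 in all 8 libraries, and 116 of these were HNRNP symbols ending in P and a number, the form of name given to pseudogenes. All 34 passed a mean of 1 RPKM (reads per length of exon and per mapped read of each library, on a fixed scale), and 152 transcripts were listed for them, of which 140 had a value in at least 1 library.

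SU-DHL-5 and Toledo are established lines of diffuse large B-cell lymphoma, labelled as B lymphocytes and grown in RPMI1640 with 10% serum. JQ1 occupies the bromodomains of BET proteins, which otherwise read acetylated histones, and so frees them from chromatin. For each line, 1 sample was given DMSO, the vehicle, and 1 was given JQ1 at 1 µM for 6 h by the labels, so there were 4 samples and n = 1 per condition. Each sample had 2 libraries, and no source used here gives what separates them. They were averaged and counted as 1 sample, no p-value is given, and a difference was called apart where both JQ1 libraries lay on one side of both DMSO libraries. Depth was 14617583 to 17679831 mapped reads per library. Intervals in the text are exact 95% binomial intervals from recovered reads and cover counting error only. Those of shares leave out how reads were divided among forms. All 8 B cell markers examined were expressed, with summed levels of 677.5 to 1045 RPKM in SU-DHL-5 and 626.6 to 980.4 RPKM in Toledo. The 4 T cell markers summed to at most 1.24 RPKM, the 4 myeloid markers to at most 1.29 RPKM, the 3 fibroblast markers to at most 2.73 RPKM and the 3 erythroid markers to at most 0.422 RPKM, and the 3 epithelial markers were at 0. In bulk RNA of this kind, fewer cells of a type and less RNA per cell cannot be told apart.

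Most splicing factor genes were lower with JQ1 in both lines, by small amounts. The median log2 ratio of JQ1 over DMSO over the 34 genes was -0.16 in SU-DHL-5, where all 9521 genes of at least 1 RPKM had a median of 0.01. In Toledo it was -0.28, beside -0.06 over all genes. Libraries of JQ1 were both below those of DMSO for 23 of the 34 in SU-DHL-5, beside 37.3% of all genes, and above them for 8, beside 41.1%. In Toledo they lay below for 26, beside 42.9% of all genes, and above for 4, beside 29.3%. These genes had a median of 5796 reads per library and all genes of at least 1 RPKM a median of 567.2, and counting error is smaller at more reads. In both lines at once, 21 of the 34 lay below, while 29.1% of all genes did. Those 21 were HNRNPA1, HNRNPA2B1, HNRNPA3, HNRNPAB, HNRNPC, HNRNPD, HNRNPDL, HNRNPF, HNRNPH1, HNRNPH3, HNRNPK, HNRNPM, HNRNPR, HNRNPUL1, SRSF1, SRSF2, SRSF3, SRSF4, SRSF7, SRSF8 and TRA2B. Above in both lines lay 3 of the 34 genes, HNRNPH2, HNRNPUL2 and SRSF5. The share of all genes above in both lines was not computed. Few of these differences were large. A fold of at least 1.5 lower was seen for 1 gene in SU-DHL-5, where 12.0% of all genes were that much lower, and for 3 in Toledo, beside 16.1%. None was at least 1.5-fold higher, beside 8.7% of all genes for SU-DHL-5 and 6.61% for Toledo. Across the 34 genes, ratios in SU-DHL-5 and Toledo had a Pearson's r of 0.60, given as a description, since genes of 1 library share its depth and scaling.

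**Figure D1:**
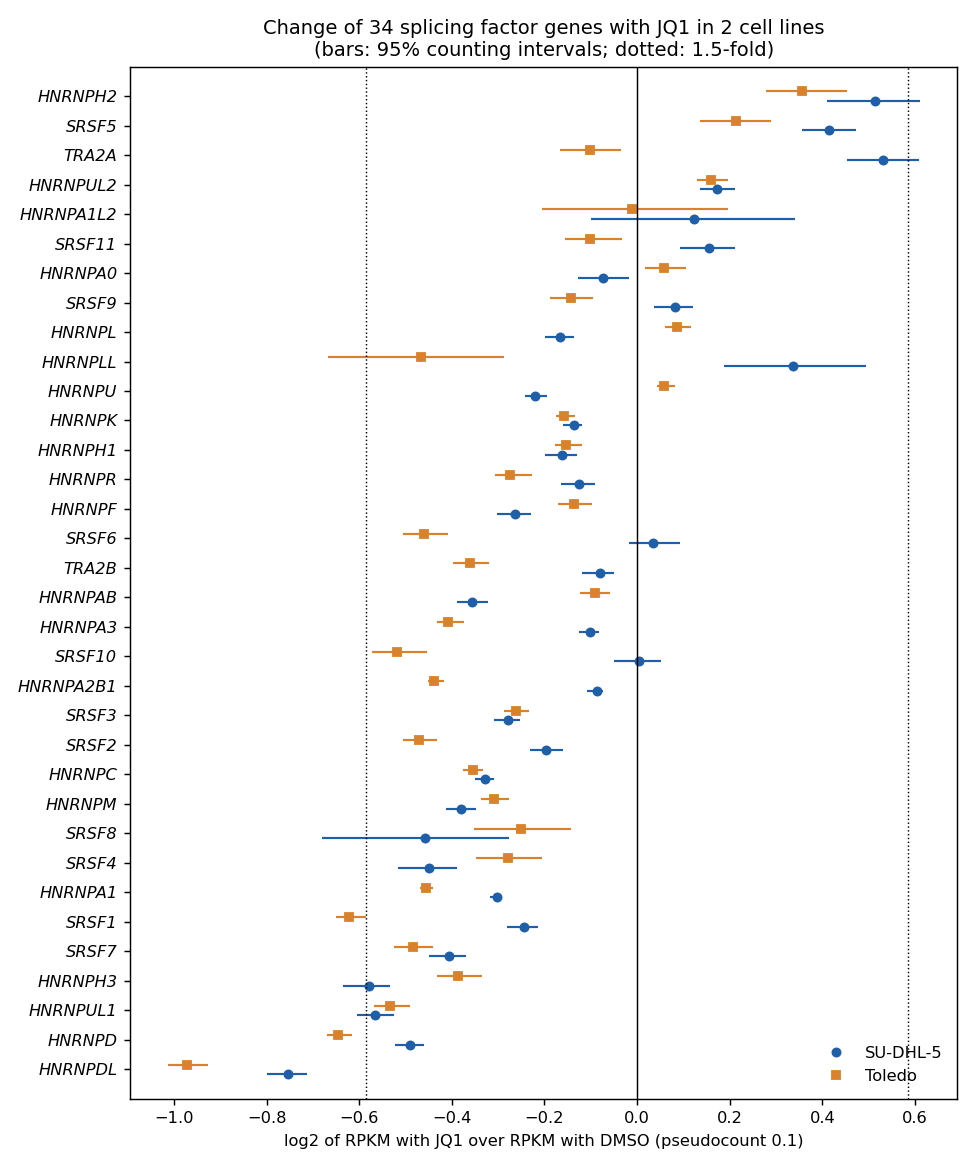
log2 ratio of JQ1 over DMSO (RPKM with 0.1 added) for the 34 genes in SU-DHL-5 (circles) and Toledo (squares), ordered by the mean of both lines, with 95% counting intervals and dotted lines at 1.5-fold. HNRNPDL, at the bottom, is the gene past 1.5-fold in both lines, and HNRNPH2, SRSF5 and HNRNPUL2 lie above 0 in both.

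The Toledo DMSO libraries differed more from each other than those of any other sample. For 33 of the 34 genes library 2 was higher than library 1, by a median of 0.16 on the log2 scale, while over all genes of at least 1 RPKM the median was 0.09. In the other 3 samples the median difference between libraries over the 34 genes was -0.00 to 0.06. With library 1 of each sample alone the Toledo median was -0.23, and with library 2 alone it was -0.34. In SU-DHL-5 these medians were -0.22 and -0.11.

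The lowest mean ratios over both lines belonged to HNRNPDL and HNRNPD, related genes on the same strand of chromosome 4, separated by 48567 bases. Both encode proteins that bind AU-rich RNA, and the product of HNRNPD, AUF1, is known for its part in mRNA decay. HNRNPDL (GRCh38 chr4:82422564-82430225, minus strand) had 89.5 and 89.5 RPKM in the DMSO libraries of SU-DHL-5 and 52.1 and 54.1 with JQ1, and in Toledo 87.5 and 97.1 RPKM with DMSO and 48.9 and 45.2 with JQ1. It was the one gene of the 34 at least 1.5-fold lower in both lines, at 0.593-fold in SU-DHL-5 (log2 -0.75, 95% interval -0.80 to -0.71) and 0.510-fold in Toledo (log2 -0.97, interval -1.01 to -0.93). HNRNPD (chr4:82353314-82373996, minus strand) had 291.8 and 283.0 RPKM with DMSO and 199.3 and 210.0 with JQ1 in SU-DHL-5, and 359.7 and 393.9 with DMSO and 229.5 and 252.4 with JQ1 in Toledo. The JQ1 libraries were thus below every DMSO library in both lines, by log2 ratios of -0.49 and -0.64.

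HNRNPUL1, HNRNPH3 and SRSF7 followed in the mean over both lines, while in SU-DHL-5 alone the ratios of HNRNPH3 and HNRNPUL1 were below that of HNRNPD. HNRNPUL1, a relative of the nuclear scaffold protein HNRNPU, had 82.9 and 78.3 RPKM with DMSO and 55.1 and 53.7 with JQ1 in SU-DHL-5, and 78.2 and 90.6 against 57.2 and 59.4 in Toledo (log2 ratios -0.57 and -0.53). HNRNPH3, of the family that binds runs of G, had 87.6 and 94.7 RPKM with DMSO and 59.7 and 62.3 with JQ1 in SU-DHL-5, and 82.9 and 93.7 against 67.3 and 67.7 in Toledo (log2 ratios -0.58 and -0.39). SRSF7, an SR protein that also carries a zinc knuckle, had 120.2 and 127.6 RPKM with DMSO and 91.6 and 95.4 with JQ1 in SU-DHL-5, and 114.0 and 115.7 against 83.8 and 80.5 in Toledo (log2 ratios -0.41 and -0.48). Groups did not overlap for these 3 genes in either line. SRSF1, the SR protein long studied in constitutive and alternative splicing, was the third gene past 1.5-fold in Toledo, beside HNRNPDL and HNRNPD, at 99.5 and 116.1 RPKM with DMSO and 68.8 and 71.2 with JQ1 (log2 -0.62), while in SU-DHL-5 its log2 ratio was -0.25.

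The most abundant members were hnRNPs. HNRNPA1, which binds UAG-containing RNA and opposes exon inclusion, held 19.9% to 23.0% of the summed RPKM of the 34 genes in each library. It had 1233 and 1277 RPKM with DMSO and 996.9 and 1039 with JQ1 in SU-DHL-5, and 1338 and 1430 against 966.4 and 1051 in Toledo (log2 ratios -0.30 and -0.46). HNRNPA2B1, its close relative, had 487.8 and 519.4 RPKM with DMSO against 461.3 and 486.8 with JQ1 in SU-DHL-5, and 501.0 and 579.8 against 393.7 and 403.6 in Toledo (log2 ratios -0.09 and -0.44). HNRNPK, whose KH domains bind C-rich RNA, had 409.1 and 404.7 against 361.2 and 378.8 RPKM in SU-DHL-5 and 393.5 and 451.6 against 372.2 and 384.8 in Toledo. HNRNPL, which binds CA repeats, had 257.6 and 241.5 against 216.6 and 227.8 RPKM in SU-DHL-5 but 266.5 and 280.4 against 283.9 and 296.7 in Toledo. Each of the 4 was apart in both lines, with JQ1 below DMSO except for HNRNPL in Toledo.

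Among the genes higher with JQ1, HNRNPH2 had the highest mean ratio. It encodes a near-copy of the HNRNPH1 protein on chromosome X, and reads of the pair may be shared between them. HNRNPH2 had 18.2 and 18.1 RPKM with DMSO and 24.5 and 27.3 with JQ1 in SU-DHL-5 (log2 0.51, interval 0.41 to 0.61), and 20.6 and 26.3 against 32.3 and 27.8 in Toledo (log2 0.36, interval 0.28 to 0.45). HNRNPH1, in contrast, was lower with JQ1 in both lines (log2 -0.16 and -0.15). SRSF5, an SR protein first found as a growth response gene, had 61.8 and 59.3 RPKM with DMSO and 78.7 and 82.9 with JQ1 in SU-DHL-5 (log2 0.42), and 37.4 and 35.3 against 43.4 and 40.9 in Toledo (log2 0.21). HNRNPUL2, the paralogue of HNRNPUL1, had 67.5 and 63.0 RPKM against 72.9 and 74.2 in SU-DHL-5 and 75.4 and 85.4 against 87.4 and 92.2 in Toledo (log2 0.17 and 0.16). HNRNPA1L2, a retrocopy of HNRNPA1 at low level, had 4.47 and 4.28 RPKM against 4.51 and 5.03 in SU-DHL-5 (log2 0.12). It was not higher in Toledo, where its libraries overlapped, at 4.76 and 5.75 against 5.38 and 5.06 (log2 -0.01). Its intervals reached 0 in both lines.

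HNRNPL, HNRNPLL, SRSF9 and TRA2A lay apart in opposite directions in the lines, and the share of all genes that did so was not computed. TRA2A, which promotes exon inclusion with TRA2B, had 27.2 and 28.9 RPKM with DMSO and 40.9 and 40.2 with JQ1 in SU-DHL-5 (log2 0.53, interval 0.45 to 0.61). In Toledo it had 44.2 and 47.4 against 43.4 and 41.9 (log2 -0.10). HNRNPLL, known in lymphocytes for the exclusion of variable exons of PTPRC (CD45), had 4.48 and 4.64 RPKM with DMSO and 5.66 and 5.92 with JQ1 in SU-DHL-5, and 3.59 and 4.06 against 2.75 and 2.73 in Toledo (log2 0.34 and -0.47). The others were HNRNPL, given above, and SRSF9, at 0.08 for SU-DHL-5 and -0.14 for Toledo on the log2 scale. TRA2B was lower in both lines (log2 -0.08 and -0.36). The difference between lines could not be tested with 1 sample per condition.

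**Figure D2:**
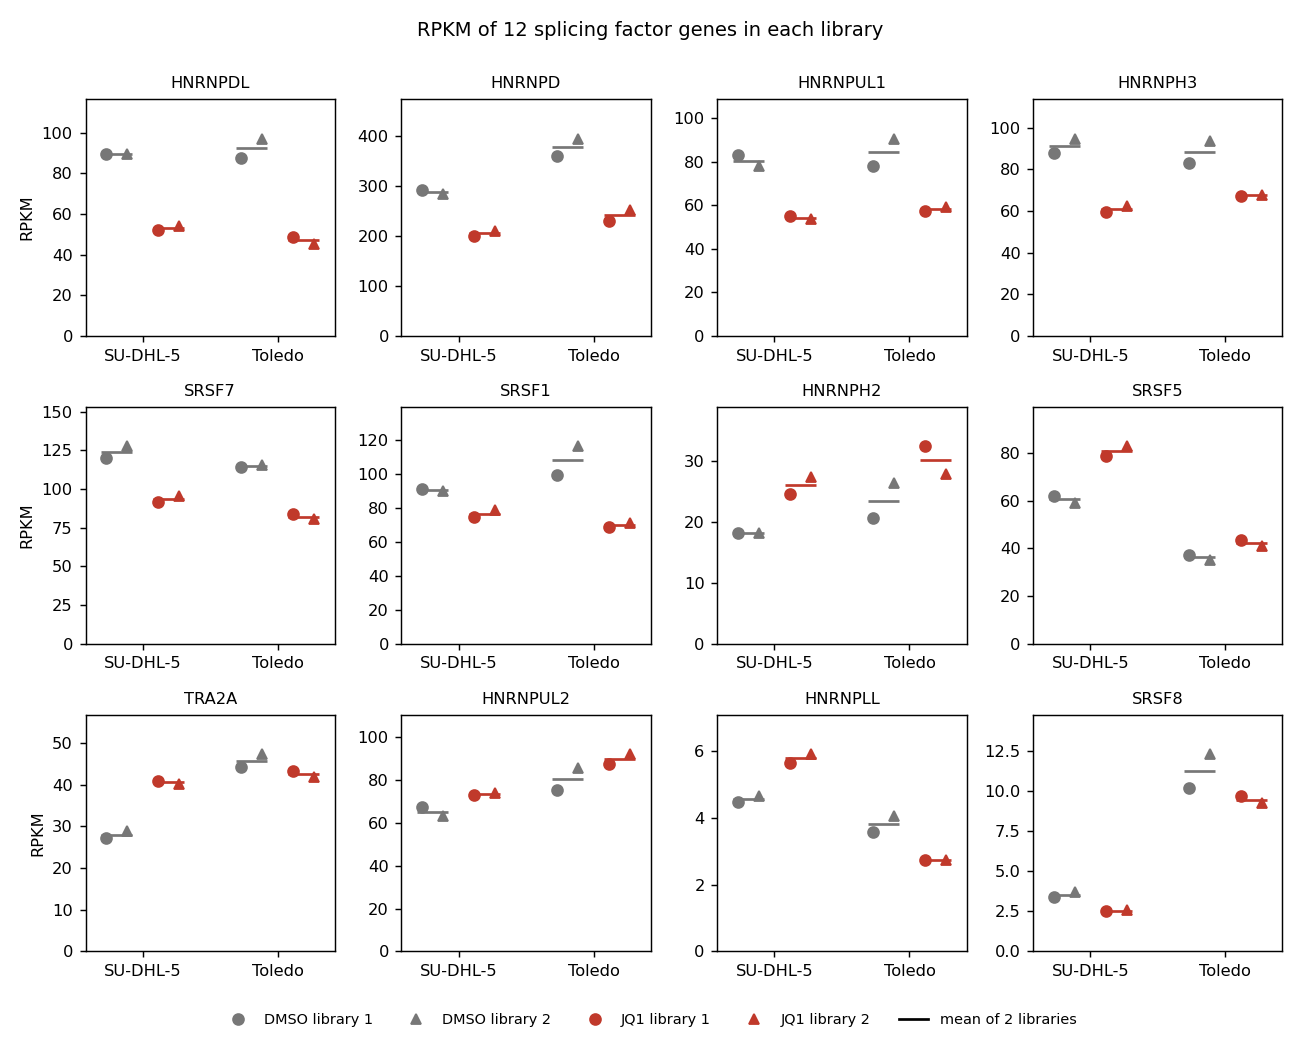
RPKM of 12 genes in each library of both lines, DMSO in grey and JQ1 in red, with library 1 as circles, library 2 as triangles and lines at the mean of the 2 libraries. HNRNPDL, HNRNPD, HNRNPUL1, HNRNPH3, SRSF7 and SRSF1 have both JQ1 libraries below both DMSO libraries in each line, and TRA2A and HNRNPLL lie on opposite sides in the lines.

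By family, the 11 SRSF genes had a median log2 ratio of -0.20 in SU-DHL-5, with 6 below and 3 above apart, and of -0.28 in Toledo, with 9 below and 1 above. The 21 HNRNP genes had medians of -0.17 in SU-DHL-5, with 16 below and 4 above, and of -0.27 in Toledo, with 15 below and 3 above. Beside these stand 37.3% of all genes below and 41.1% above in SU-DHL-5 (median log2 ratio 0.01). In Toledo 42.9% lay below and 29.3% above (median -0.06). Libraries overlapped for HNRNPA0, SRSF10 and SRSF6 in SU-DHL-5 and for HNRNPA0, HNRNPA1L2, HNRNPU and SRSF11 in Toledo. SRSF10, a splicing repressor in its dephosphorylated form, and SRSF6 had ratios close to 0 in SU-DHL-5 (0.00 and 0.03) and of -0.52 and -0.46 in Toledo. Of the remaining genes, HNRNPC, SRSF3 and HNRNPM had similar ratios in the lines, at -0.33, -0.28 and -0.38 for SU-DHL-5 and -0.35, -0.26 and -0.31 for Toledo.

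With DMSO, the lines already differed in some members. SRSF8, a retrocopy of SRSF2 whose reads may be split with it, had 3.37 and 3.70 RPKM for SU-DHL-5, and 10.2 and 12.3 for Toledo (log2 1.65, Toledo over SU-DHL-5). TRA2A was also at least 1.5-fold higher in Toledo (log2 0.71), beside 25.2% of all genes. SRSF5 and HNRNPA3 were at least 1.5-fold lower there (log2 -0.73 for each), beside 23.4% of all genes. HNRNPA3 had 175.1 and 174.9 RPKM for SU-DHL-5, and 95.5 and 114.9 for Toledo. The other 30 genes were within 1.5-fold.

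The transcript table gave the proportions of the forms of each gene. A transcript's share was its RPKM as a percentage of the summed RPKM of all listed transcripts of its gene. For genes with at least 2 listed transcripts and a mean of 100 reads, 134 transcripts of 28 members had shares, and their median absolute difference between JQ1 and DMSO was 1.15 percentage points in SU-DHL-5 and 1.32 in Toledo, beside 2.23 and 2.36 over all 29290 transcripts of this kind. Shares that were apart and higher by at least 10 points numbered 2 in SU-DHL-5, beside 4.65% of all transcripts, and 3 in Toledo, beside 5.25%. Shares lower by as much numbered 0 in SU-DHL-5, beside 4.33% of all transcripts, and 2 in Toledo, beside 5.11%. In either direction these were 2 and 5 of the 134, beside 8.98% and 10.4%. The transcripts that did so in both lines were HNRNPF_1 and HNRNPH3_1, as named in the table. How reads were divided among transcripts that share most of their sequence is not given in the sources used here, and shares inherit that step.

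Where listed transcripts of a gene had the same ends and their lengths differed by exactly 1 stretch annotated in GENCODE as alternative, they were compared as a longer and a shorter form. This gave 28 stretches in 19 genes, of which 16 lay wholly inside a coding sequence. Some overlap, as in HNRNPR (166 and 169 bases) and SRSF10 (51 and 54 bases), so the counts are not of separate events. The 5 printed here are among the coding stretches whose longer form was apart in the same direction in both lines, each of a length that is a multiple of 3. They are printed in the direction of the gene from GENCODE transcripts (GRCh38), with the alternative stretch in capitals and 15 bases of the neighbouring exon sequence on each side in lower case.
HNRNPH3 45 bases: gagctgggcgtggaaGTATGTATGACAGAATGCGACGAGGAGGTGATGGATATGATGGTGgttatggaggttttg
HNRNPM 117 bases: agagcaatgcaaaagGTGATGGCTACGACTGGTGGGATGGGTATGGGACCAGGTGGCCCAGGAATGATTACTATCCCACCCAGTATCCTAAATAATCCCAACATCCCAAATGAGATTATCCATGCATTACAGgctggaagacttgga
HNRNPD 57 bases: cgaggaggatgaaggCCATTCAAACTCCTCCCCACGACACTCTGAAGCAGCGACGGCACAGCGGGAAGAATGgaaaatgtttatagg
HNRNPD 147 bases: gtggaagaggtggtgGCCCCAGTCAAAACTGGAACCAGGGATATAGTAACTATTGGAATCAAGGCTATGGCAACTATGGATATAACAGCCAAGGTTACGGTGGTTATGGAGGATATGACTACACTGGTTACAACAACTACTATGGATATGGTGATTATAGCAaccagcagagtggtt
HNRNPU 57 bases: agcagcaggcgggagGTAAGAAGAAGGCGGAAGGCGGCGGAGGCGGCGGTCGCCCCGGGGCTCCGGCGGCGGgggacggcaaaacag
They lie at chr10:68338643-68338687 (HNRNPH3, plus strand), chr19:8465363-8465479 (HNRNPM, plus strand), chr4:82371528-82371584 and chr4:82356537-82356683 (HNRNPD, minus strand) and chr1:244863617-244863673 (HNRNPU, minus strand).

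HNRNPH3 had the largest difference of the 5 printed stretches in each line. Its stretch lies between alternative 5′ splice sites, so that the longer form uses the downstream site. In SU-DHL-5 the longer form made up 48.8% and 44.3% in the DMSO libraries and 66.5% and 61.7% with JQ1. In Toledo it made up 60.2% and 62.0% with DMSO and 78.1% and 77.2% with JQ1. JQ1 was above DMSO by 17.6 points in SU-DHL-5 and by 16.5 points in Toledo. Counting intervals were 45.3% to 47.5% (DMSO) and 62.8% to 65.5% (JQ1) in SU-DHL-5, and 60.0% to 62.2% and 76.5% to 78.7% in Toledo. They count every read assigned to either form, though the forms of a pair differ by 45 bases, so they are too narrow. In SU-DHL-5 the values of the single libraries lie outside them. The levels showed which form differed. The form without the 45 bases had 49.2 and 57.4 RPKM with DMSO and 21.8 and 25.9 with JQ1 in SU-DHL-5, and 35.8 and 39.1 against 16.2 and 16.8 in Toledo (log2 ratios -1.16 and -1.18). The form with them had 46.9 and 45.6 RPKM against 43.3 and 41.6 in SU-DHL-5, and 54.1 and 63.9 against 57.6 and 56.7 in Toledo (log2 ratios -0.12 and -0.04). The lower HNRNPH3 level with JQ1 was thus mostly in the shorter form. HNRNPH3_1, 1 of the 3 listed transcripts of the longer form, was at 26.3% and 25.2% of the gene with DMSO and 39.3% and 37.0% with JQ1 in SU-DHL-5, and at 26.8% and 31.9% against 38.0% and 41.0% in Toledo.

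HNRNPM, which binds GU-rich RNA, moved the other way. GENCODE gives its 117 bases as an intron that can be kept within the coding sequence, and the longer form keeps them. The longer form was at 44.7% and 45.3% with DMSO and 36.6% and 37.3% with JQ1 in SU-DHL-5, and at 43.5% and 45.1% against 30.7% and 34.1% in Toledo, a difference of -8.03 and -11.94 points. The longer form was lower with JQ1 in both lines (log2 -0.68 and -0.78), with 96.4 and 86.3 RPKM against 54.9 and 59.3 in SU-DHL-5, and with 88.9 and 102.2 against 49.7 and 61.6 in Toledo. The log2 ratio of the shorter form was -0.20 for SU-DHL-5 and -0.05 for Toledo, where its libraries overlapped.

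The 4 listed transcripts of HNRNPD are the 4 combinations of 2 coding cassette exons, and JQ1 libraries differed from DMSO libraries at both. The 57-base exon was included in 80.0% and 79.0% with DMSO and 73.9% and 72.4% with JQ1 in SU-DHL-5, and in 81.4% and 82.6% against 76.1% and 78.4% in Toledo, lower with JQ1 by 6.30 and 4.73 points. Forms with this exon were lower by log2 ratios of -0.61 and -0.73 and forms without it by -0.10 and -0.31. The 147-base exon was included in 42.4% and 42.4% with DMSO and 46.4% and 47.5% with JQ1 in SU-DHL-5, a difference of 4.55 points. In Toledo the values were 43.8% and 44.1% against 44.4% and 47.5%, and the difference of 1.97 points was 0.53 in library 1 alone and 3.40 in library 2 alone. Forms without this exon were lower by log2 ratios of -0.61 and -0.70 and forms with it by -0.34 and -0.58.

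**Figure D3:**
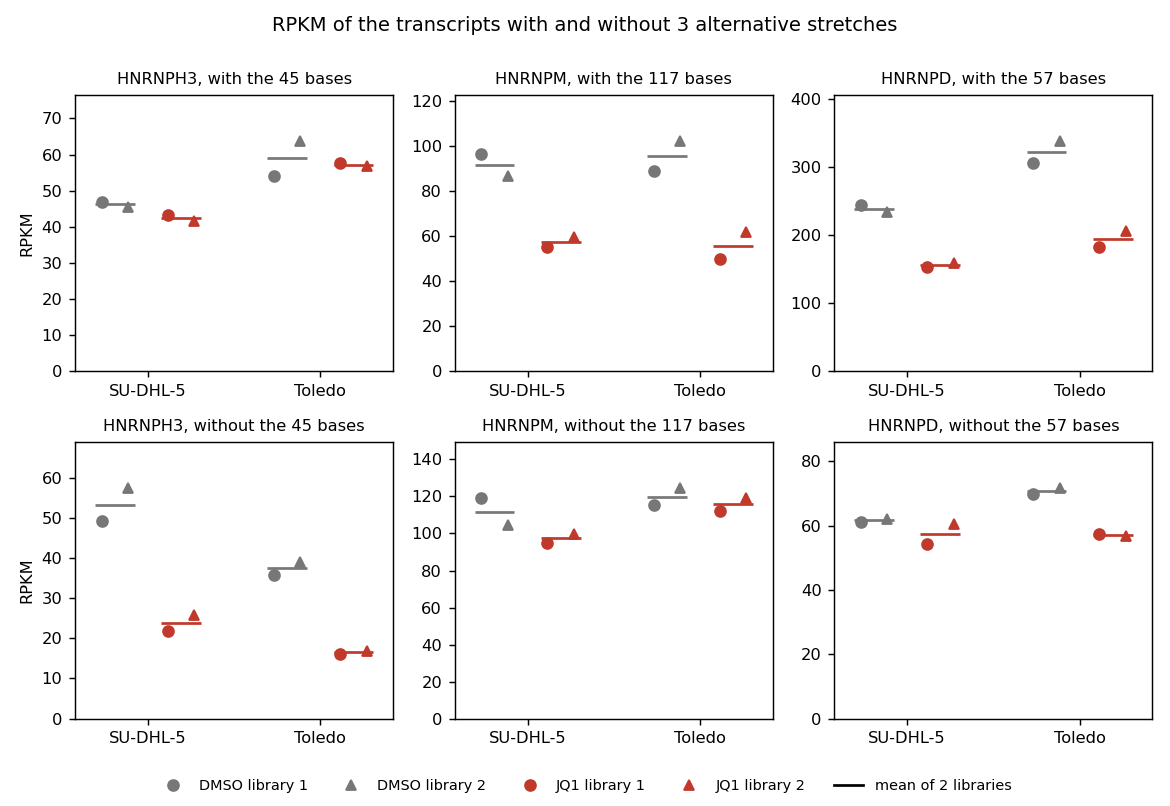
RPKM of the listed transcripts with (top) and without (bottom) the alternative stretches of HNRNPH3, HNRNPM and HNRNPD (57 bases) in each library, with the mean of the 2 libraries as a line. In HNRNPH3 the form without the 45 bases is the lower one with JQ1, at 21.8 and 25.9 RPKM in SU-DHL-5, and in HNRNPM and at the 57 bases of HNRNPD the form with the stretch is lower by more than the form without it.

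Differences in both lines were also seen in HNRNPU and SRSF2. In HNRNPU, which organizes chromatin and nuclear RNA, the 57 bases lie between alternative 5′ splice sites. The longer form was at 35.9% and 32.1% with DMSO and 37.9% and 37.4% with JQ1 in SU-DHL-5, and at 29.0% and 28.9% against 35.1% and 33.7% in Toledo. The levels differed by line. In SU-DHL-5 the shorter form was lower with JQ1 (log2 -0.30) and libraries of the longer form overlapped (log2 -0.08). In Toledo the longer form was higher (log2 0.31) and libraries of the shorter form overlapped (log2 -0.06). SRSF2, which is known to regulate its own level through splicing near its 3′ end, has a listed form that keeps a 995-base intron (chr17:76735159-76736153, minus strand), which no annotated coding sequence holds whole. That form was at 1.19% and 2.05% with DMSO and 3.42% and 4.02% with JQ1 in SU-DHL-5, and at 4.38% and 4.15% against 9.40% and 7.92% in Toledo. Its own level was higher with JQ1 in both lines (log2 0.97 and 0.52), with 2.71 and 4.37 RPKM against 6.48 and 7.62 in SU-DHL-5, while that of the spliced form was lower (log2 -0.24 and -0.57). Exons of MFSD11 on the opposite strand overlap those of SRSF2, the kit keeps strand, and whether the counting used it is not given in the sources used here.

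**Figure D4:**
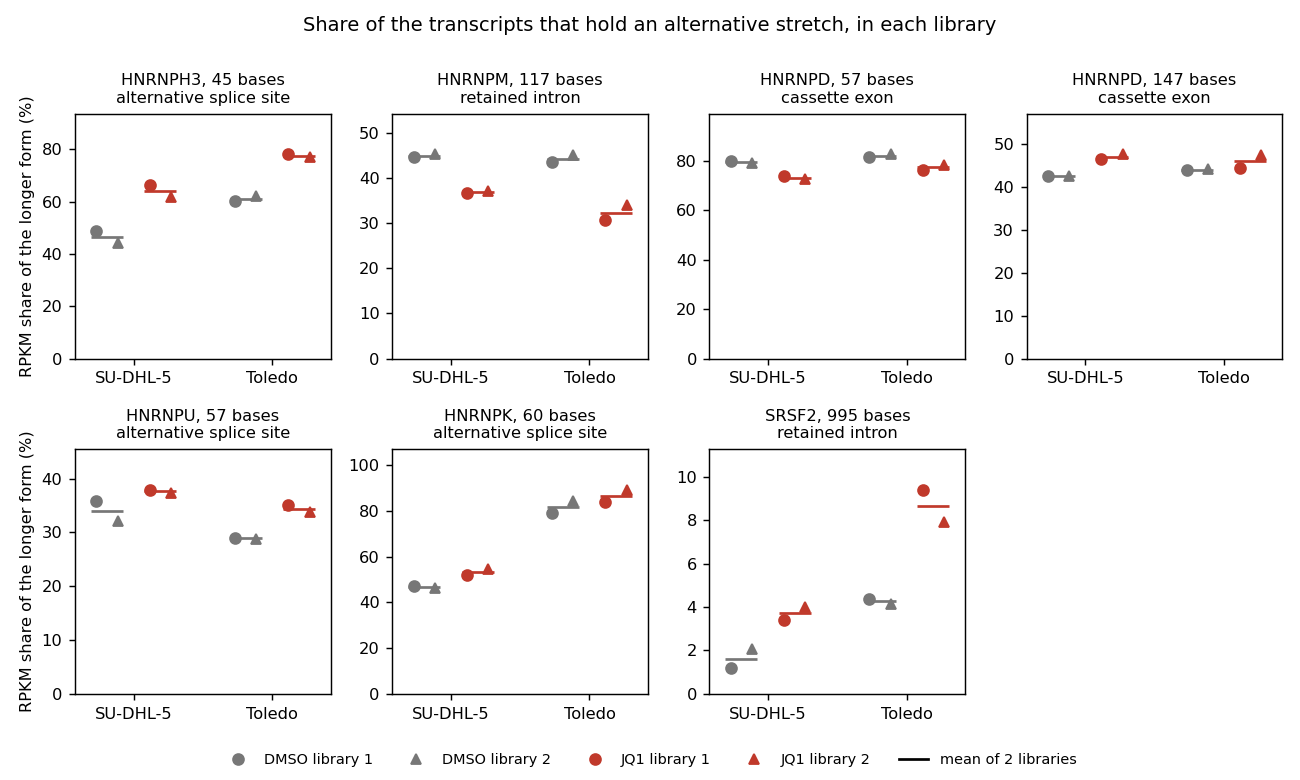
Share of the longer form (RPKM of the transcripts with an alternative stretch as a percentage of those with and without it) for 7 stretches in each library, with axes that start at 0. Both JQ1 libraries lie above both DMSO libraries in each line for HNRNPH3, the 147 bases of HNRNPD, HNRNPU and SRSF2 and below them for HNRNPM and the 57 bases of HNRNPD, while HNRNPK overlaps in Toledo.

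Of the 28 stretches, the longer form was apart and higher with JQ1 in both lines for 4 and apart and lower for 6, and none was apart in opposite directions. Of these 10, those in HNRNPH1 (41 bases) and HNRNPR (166 and 169 bases) are held whole by no annotated coding sequence. The HNRNPR stretches overlap, so the 10 are not all separate events. In SU-DHL-5 the longer form was apart and higher for 9 stretches and apart and lower for 6, and in Toledo for 7 and 9. No share over all genes was computed for such stretches, or for both lines at once. The nearest background is that of single transcripts in 1 line at a time. In SU-DHL-5, 16.0% of all 29290 shares were apart and higher and 17.4% apart and lower, and in Toledo 16.6% and 18.8% were. Of the 134 shares of the members, 37 were apart and higher and 34 lower in SU-DHL-5. In Toledo these counts were 33 and 38. The 34 genes had a median of 5796 reads per library and all genes of at least 1 RPKM 567.2, and counting error is smaller at more reads. The median absolute difference of the member shares was the smaller one, at 1.15 points against 2.23 over all transcripts in SU-DHL-5. In Toledo it was 1.32 against 2.36. Coding exons with little difference included the 141 bases of HNRNPAB (76.2% and 76.3% in SU-DHL-5, 62.4% and 62.1% in Toledo, for DMSO and JQ1) and the 36 bases of SRSF7 (87.8% and 88.6%, 83.6% and 84.1%), whose libraries overlapped in both lines. Some forms differed between the lines more than with JQ1. At an alternative 3′ splice site of HNRNPK that adds 60 bases, the longer form was at 47.0% and 46.3% with DMSO in SU-DHL-5 and at 79.0% and 84.4% in Toledo, and with JQ1 at 52.0% and 54.4% and at 84.0% and 89.2%.

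In HNRNPF, a relative of HNRNPH3, shares differed among transcripts with different starts, and the inner exons of these were not compared. Its 6 listed transcripts share their 3′ end on the minus strand of chromosome 10 and begin at different positions, and HNRNPF_1 begins furthest upstream, at position 43409248. Its share of the gene was 41.9% and 44.7% with DMSO and 59.4% and 57.1% with JQ1 in SU-DHL-5, a difference of 14.9 points. In Toledo it was 56.7% and 52.9% against 65.3% and 67.9%, a difference of 11.8 points. HNRNPF_4, which begins at position 43407851, had 29.3% and 23.6% with DMSO and 17.4% and 19.3% with JQ1 in SU-DHL-5 and 20.9% and 18.5% against 18.4% and 13.9% in Toledo. HNRNPF_3, which begins between these at 43408884, had 5.37% and 7.96% against 2.91% and 2.16% in SU-DHL-5, and 6.61% and 7.45% against 3.62% and 2.51% in Toledo.

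**Figure D5:**
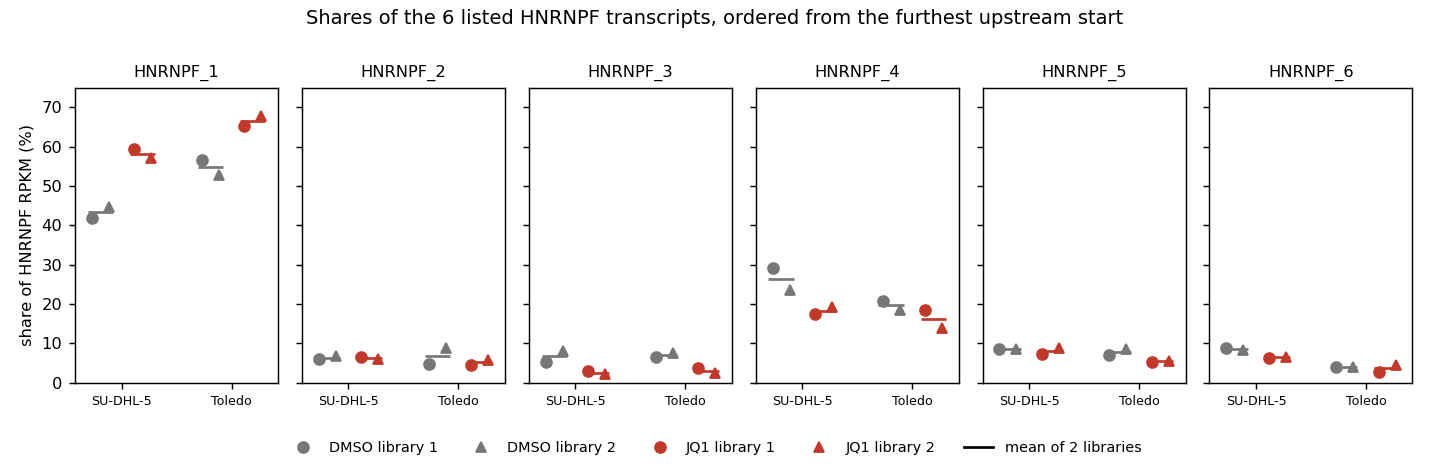
Share of each of the 6 listed HNRNPF transcripts in the summed RPKM of the gene, in each library, ordered by start from the furthest upstream. HNRNPF_1 is higher with JQ1 in both lines, by 14.9 and 11.8 percentage points, and HNRNPF_3 and HNRNPF_4 are lower.

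The other transcripts that moved by 10 points were in Toledo. HNRNPM_4, the longer form described above, went from 39.3% and 40.9% of the gene with DMSO to 27.0% and 30.6% with JQ1. The remaining pair were HNRNPA1L2_1 and HNRNPA1L2_2, at 8.07% and 2.56% against 8.22% and 25.8% for the first and 91.9% and 97.4% against 91.8% and 74.2% for the second, so that the move of 11.7 points came from library 2 with JQ1, on 52 reads, and with library 1 alone the values were 8.07% and 8.22%. Just under 10 points were HNRNPK_4, lower by 9.86 points in SU-DHL-5 and by 1.81 in Toledo, and HNRNPK_2, higher by 8.69 and 6.55 points.

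The listed transcripts covered part of the forms known for these genes. GENCODE release 29 holds 422 transcripts of the 34 genes, including 55 annotated as targets of nonsense-mediated decay in 26 genes and 100 with a retained intron in 24 genes, whereas the table lists 152. SRSF3, SRSF6, SRSF8, SRSF9, HNRNPA0 and HNRNPUL2 have 1 listed transcript each, so no shares exist for them, and transcripts of SRSF3 that hold its known poison exon have no row of their own.

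Other splicing genes were compared by lists, whose counts of genes apart stand beside 37.3% of all genes below and 41.1% above for SU-DHL-5, and 42.9% and 29.3% for Toledo. The 13 kinases, phosphatases and import factors of SR proteins had a median log2 ratio of 0.15 in SU-DHL-5, with 3 apart below and 8 above, and of -0.04 in Toledo, with 2 below and 2 above. CLK1, a kinase of SR proteins, was the one at least 1.5-fold higher, in SU-DHL-5, from 9.52 and 10.3 to 15.7 and 15.1 RPKM (log2 0.63), and its libraries overlapped in Toledo (log2 0.14). Of 15 factors that recognize the 3′ splice site and branch point, 10 were apart below in SU-DHL-5, 11 in Toledo and 0 above in either, with median log2 ratios of -0.28 and -0.27. The libraries of SF3B1, SF3B5 and PUF60 overlapped in both lines, and the log2 ratios of SF3B1, a core protein of the U2 snRNP, were 0.05 and 0.07. SF3A2 and PHF5A of the U2 snRNP were past 1.5-fold lower in SU-DHL-5 (log2 -0.62 and -0.59), and none of the 15 was in Toledo. The 13 U1 and Sm genes had medians of -0.21 and -0.08, with 7 below and 5 above for SU-DHL-5, and 5 and 1 for Toledo, where SNRPE was past 1.5-fold (log2 -0.65). The 18 genes of the tri-snRNP and catalytic core had medians of 0.01 and -0.12, with 7 below and 4 above for SU-DHL-5, and 9 and 2 for Toledo.

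The 38 other splicing regulators had medians of -0.01 and -0.12, with 14 apart below and 14 above for SU-DHL-5, beside 37.3% and 41.1% of all genes, and 16 and 8 for Toledo, beside 42.9% and 29.3%. PTBP2, the relative of the polypyrimidine tract binding protein best known in neurons, was at least 1.5-fold lower in both lines, with 3.20 and 3.23 RPKM against 2.22 and 1.93 in SU-DHL-5, and 7.32 and 9.29 against 2.95 and 3.14 in Toledo (log2 -0.61 and -1.42). CELF2 was too (log2 -0.84 and -0.89). MBNL3, RBFOX2 and RBM39 were past 1.5-fold lower in Toledo alone (log2 -0.83, -0.86 and -0.70), and KHDRBS3 and RBM5 past 1.5-fold higher there (log2 0.89 and 0.60). KHDRBS3 was listed at 0 in all libraries of SU-DHL-5. The 15 genes of nonsense-mediated decay had medians of 0.07 and -0.01, with 4 apart below and 7 above for SU-DHL-5, and 3 and 3 for Toledo, beside the same shares of all genes. Within it, UPF3A, which has been described as able to hold back decay, was higher in both lines, with 21.3 and 23.5 RPKM against 35.0 and 36.1 in SU-DHL-5, and 11.4 and 12.6 against 21.7 and 19.9 in Toledo (log2 0.67 and 0.79). MAGOHB, a core component of the exon junction complex, was lower in both (log2 -0.87 and -1.43).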

How the data were processed

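RNA of 4 samples (SU-DHL-5 and Toledo, each with DMSO or JQ1) was sequenced by the authors from TruSeq Stranded mRNA libraries, 2 per sample. The deposited values are RPKM of genes and of transcripts, which the authors scaled to feature length and mapped reads of each library. The submitters' processing notes name GRCh38 and CASAVA 2.0, and the aligner, the counting and the annotation are not given in the sources used here. The labels give 6 h of treatment and a legend of the paper gives another time.

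No reads were processed here. Start positions in the tables were counted from 0 and were raised by 1 for print. Mapped reads per library and feature lengths were recovered as the whole numbers (100 to 40000 bases, tolerance 0.002 reads) that turned the RPKM values into whole reads, for 14942 of 14944 genes with a value. Depth was 14617583 to 17679831 mapped reads per library. These reads were used for intervals and filters only. Ratios are log2((JQ1 + 0.1)/(DMSO + 0.1)) of mean RPKM, which understates the change of low genes. With 1 sample per condition there was no test, and genes or transcripts were called by size (1.5-fold, or 10 points of share). The share of each transcript and the forms of each gene were computed from RPKM, and forms were matched to GENCODE release 29 by exact length. No column of other samples was used (0 found). Functions were checked on simulated reads.

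Members and lists were chosen with earlier results of these data known, and the comparison of longer and shorter forms was added after transcript values were seen. A stretch is counted but not reported here. All 34 members could be named. Values of every library are given for members past 1.5-fold in both lines, the 5 with the highest and the 5 with the lowest mean ratio, the 5 most abundant, and transcripts with moved shares. Other named genes come from lists, and examples beyond these rules were chosen after their values were seen. Alternatives varied the pseudocount, the filter, the scaling, the table, the library, the fold and the cutoffs of share. Exons of 9 members overlap exons of another gene on the opposite strand and those of 9 members on the same strand (GENCODE). On the opposite strand these include HNRNPH3 (RUFY2), HNRNPM (AC136469.2) and HNRNPUL1 (TGFB1). On the same strand they include HNRNPH2 (RPL36A-HNRNPH2) and HNRNPUL2 (HNRNPUL2-BSCL2). The work was done in Python 3.11.15 with scipy 1.17.1, pandas 2.3.3, numpy 2.4.6, and plots with matplotlib 3.10.9.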

Additional observations from a re-analysis of the deposited data

Results flagged for a closer look

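TRA2A, HNRNPLL, HNRNPL and SRSF9 had both JQ1 libraries on opposite sides of both DMSO libraries in the 2 lines. The share of all genes that did so was not computed. The difference between the lines was not tested, since each condition had 1 sample. TRA2A was at 0.53 for SU-DHL-5 and -0.10 for Toledo (log2 ratio). HNRNPLL had 0.34 and -0.47, on a mean of 296.6 reads per library. HNRNPL had -0.17 and 0.086. SRSF9 had 0.081 and -0.14.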

How the results depend on the processing

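The median log2 ratio of the 34 genes was negative in both lines under all 7 alternatives, at -0.22 to -0.11 for SU-DHL-5 and at -0.34 to -0.21 for Toledo. Counts past a fold are small and moved with it. The shares of all genes or transcripts under these other settings are not given here, so the counts below have no background beside them. In SU-DHL-5, genes at least 1.5-fold lower numbered 1, and 2 after division by the median ratio or with library 1 or library 2 alone, 0 at a fold of 2 and 10 at 5/4, and genes higher numbered 0, but 1 with library 1 or library 2 alone and 4 at a fold of 5/4. In Toledo, genes lower numbered 3, and 1 after division by the median ratio, 6 with library 2 alone, 0 at a fold of 2 and 15 at 5/4, and genes higher numbered 0, but 1 with library 1 alone and 1 at a fold of 5/4. Transcripts with a moved share numbered 2 in SU-DHL-5, with 12 at 5 points, 0 at 20 points and 5 with library 2 alone, and 5 in Toledo, with 18 at 5 points, 0 at 20 points and 3 with at least 500 reads. Of the 68 single log2 ratios, 2 changed sign with library 1 alone, 4 with library 2 alone, 2 after division by the median ratio and 1 with transcripts summed, and the largest of these was 0.10 in size. The direction of the 6 stretches recomputed (5 printed and that of SRSF2) held by reads. It also held in each library, which could not fail, since all 6 were apart in both lines. These alternatives were added after the data were seen. No paired analysis was possible because the labels give 1 sample per condition, and for the same reason no replicate could be left out. Both libraries may come from the same RNA, so their agreement does not measure variation between cultures. The cause of these shifts was not tested.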

Other observations

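A 26-base exon of HNRNPC (chr14:21263311-21263336, minus strand), which no coding sequence in GENCODE holds whole, separated 2 listed transcripts of the same ends and had the largest difference of all 28 stretches, in Toledo. HNRNPC_3, which holds it, had 2315 and 2680 reads in the DMSO libraries of Toledo and 0 and 14 with JQ1, and in SU-DHL-5 it had 139 and 0 with DMSO and 0 and 0 with JQ1. HNRNPC_1, which lacks it, went from 40.2 and 36.5 RPKM with DMSO to 60.2 and 64.0 with JQ1 in Toledo and from 149.3 and 149.0 to 140.0 and 146.3 in SU-DHL-5. Within the pair, the longer form made up 50.3% and 58.4% with DMSO and 0% and 0.42% with JQ1 in Toledo. The forms share all but 26 of 3213 bases, and how reads were divided between them is not given in the sources used here, so its part in this value was not tested.

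Libraries of 1 sample also disagreed in a pair of HNRNPLL. The form of HNRNPLL that keeps a 256-base intron was at 15.3% and 44.9% in the JQ1 libraries of Toledo and between 36.9% and 43.1% in the other 6 libraries.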
